A study of Mus musculus with 3 samples.

Results

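The promoters of 53 apoptosis genes were measured among 16164 promoters on a custom mouse promoter array, in chromatin of myoblasts at rest. Members were taken by gene name: the BCL2 family, the caspases and Apaf1, the Birc genes, the Fas and TNF death receptors with their adaptors, further TNF receptors whose names begin with Tnfrsf1, and the Traf genes. The names brought 55 genes with probes, of which 53 had at least 3 usable probes on every array. They carried 759 probes, with 4 to 23 probes a promoter and a median of 15, the same median as over all promoters. The pattern goes by name, so it also takes in genes best known for other work, such as Casp1 and Casp4 in inflammation, Casp14 in skin, Tnfrsf11a in bone and Traf3ip1 in cilia.

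The cells were C2C12, a mouse myoblast line, arrested in G0 in 2% methylcellulose. They were fixed in 1% formaldehyde, which was quenched with 0.125 M glycine. Chromatin bound by an antibody against PRDM2 was hybridised to 2 arrays and chromatin bound by an antibody against H3K9me2 to 1 array, and every array also took the matching input DNA, under the second dye. PRDM2 is a zinc finger protein of a histone methyltransferase family, H3K9me2 is histone H3 dimethylated at lysine 9, a mark of silent chromatin, and the series set out to find genes that PRDM2 occupies in arrested cells. Every array came from the same arrested line, and dividing cells or a control antibody were not analysed here. The arrays hold DNA, so markers of the cell type could not be read from them.

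In the mitochondrial pathway of apoptosis, BH3-only proteins such as BID and BIM sense damage and are held in check by BCL2, BCL-XL and MCL1. Where they prevail, BAX and BAK open the outer mitochondrial membrane, cytochrome c meets APAF1, and the apoptosome starts CASP9, which in turn starts the caspases that dismantle the cell. Death receptors such as FAS reach the same end through FADD, while TRADD, the TRAF adaptors and the BIRC proteins also carry survival signals to NF-kappaB.

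Values are the mean log2 ratio of IP over input of the probes of a promoter, with 0 set at the median probe of its array. Before that centring the median probe of PRDM2 array 1 read -0.91, that of PRDM2 array 2 read -0.80 and that of the H3K9me2 array -0.27, so a value above 0 does not mean more IP than input DNA. The median promoter then read 0.58 and 0.43 for PRDM2 and -0.23 for H3K9me2. Precipitated DNA gave little signal on the PRDM2 arrays, with medians of 1.47 and 1.39 times the negative-control spots, against 6.44 times on the H3K9me2 array. Of the 759 probes of apoptosis genes, 628 and 562 had IP signal well above background on the PRDM2 arrays and 613 on the H3K9me2 array, while 753, 753 and 731 had such input signal. Precision is limited by the 3 arrays at hand. Whether both PRDM2 samples were separate cultures is not stated in the labels, so the spread behind the p-values is that of these 2 arrays and may be technical.

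The sequences below are those of the probe with the highest mean PRDM2 ratio in each of 8 promoters that the results turn on. Every CG is in capitals. All 48 apoptosis probes inside windows around RefSeq gene starts matched the plus strand. The 8 shown lie outside these windows, so their strand was not checked. The probes come from the array design, and their coordinates are printed as deposited, on a genome build that no source used here names. They differ from those of GRCm38.
Mcl1 probe, chr3:95744556-95744600: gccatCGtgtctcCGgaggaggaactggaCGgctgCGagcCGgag
Bak1 probe, chr17:26755282-26755326: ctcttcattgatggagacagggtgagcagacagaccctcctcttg
Bcl2l2 probe, chr14:53837975-53838019: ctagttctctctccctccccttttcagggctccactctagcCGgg
Bax probe, chr7:45334724-45334768: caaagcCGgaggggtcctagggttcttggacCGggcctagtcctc
Bcl2 probe, chr1:108541360-108541404: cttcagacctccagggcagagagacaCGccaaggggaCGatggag
Fas probe, chr19:34356776-34356820: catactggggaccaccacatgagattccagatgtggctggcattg
Bad probe, chr19:7010273-7010326: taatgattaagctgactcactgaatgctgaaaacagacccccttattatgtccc
Tnfrsf18 probe, chr4:154870328-154870372: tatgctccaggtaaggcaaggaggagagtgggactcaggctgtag
The Mcl1 probe, 453 bp past the gene start, holds 5 CG in 45 bases at 68.9% GC and read 7.46 and 5.64 on the PRDM2 arrays and 3.75 on the H3K9me2 array. The best Bad probe holds none at 40.7% GC and read 4.16 and 0.58 on the PRDM2 arrays and 2.66 on the H3K9me2 array.

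To set base composition beside the values, the following windows show the 250 bases before and 50 bases after the gene start in RefSeq, build GRCm38.p6, for the highest promoter and for the lowest pair, again with CG in capitals.
Mcl1 window, chr3:95658471-95658770, plus strand: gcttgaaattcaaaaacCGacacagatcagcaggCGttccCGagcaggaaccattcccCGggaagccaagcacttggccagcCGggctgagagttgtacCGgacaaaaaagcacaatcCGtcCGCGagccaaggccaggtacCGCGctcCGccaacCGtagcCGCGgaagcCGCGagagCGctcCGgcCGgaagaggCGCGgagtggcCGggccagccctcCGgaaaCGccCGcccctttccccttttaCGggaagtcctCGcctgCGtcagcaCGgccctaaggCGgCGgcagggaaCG
Bad window, chr19:6942312-6942611, plus strand: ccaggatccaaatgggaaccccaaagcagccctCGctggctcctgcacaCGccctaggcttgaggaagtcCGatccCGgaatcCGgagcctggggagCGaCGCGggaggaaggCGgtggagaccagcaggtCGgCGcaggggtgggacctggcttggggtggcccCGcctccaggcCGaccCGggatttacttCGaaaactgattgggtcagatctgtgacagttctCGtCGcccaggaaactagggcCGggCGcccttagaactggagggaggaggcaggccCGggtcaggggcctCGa
Tnfrsf18 window, chr4:156026072-156026371, plus strand: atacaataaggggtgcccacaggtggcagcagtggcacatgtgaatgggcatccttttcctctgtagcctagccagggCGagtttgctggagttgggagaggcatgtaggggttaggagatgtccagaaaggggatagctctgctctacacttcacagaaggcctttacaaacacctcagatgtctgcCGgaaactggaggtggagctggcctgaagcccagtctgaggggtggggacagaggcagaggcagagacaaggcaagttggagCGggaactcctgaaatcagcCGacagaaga
The Mcl1 window holds 33 CG, the Bad window 21 and the Tnfrsf18 window 4. A RefSeq window was found for 45 of the 53 apoptosis promoters, with a median of 16 CG against 17 for the genes of all promoters. The motif GGGCGG, searched on both strands, was in the windows of 27 of these 45 genes (60%), against 53.1% of 12470 genes of all promoters. The Mcl1 window holds 1 such motif, while the Bad and Tnfrsf18 windows hold none.

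PRDM2 values of apoptosis promoters spread widely, also within a role. The survival gene Mcl1 and the pore former Bak1 stood highest, while Bad, of the same mitochondrial pathway, stood low. Bcl2 had a mean of 0.22, where the median promoter of like GC content read 0.26. Of the 53 promoters, 25 (47.2%) passed the test above the median probe and 1 (1.89%) passed it below. Among all 16164 promoters 46.9% passed above and 1.08% below, so neither share is a result about apoptosis genes. The test was limma's moderated test on both PRDM2 arrays, fitted across all promoters with Benjamini-Hochberg adjusted p under 0.05. The median PRDM2 value was 0.49 over apoptosis promoters and 0.50 over all promoters. The split follows the point taken as 0 and the dye correction. With the median promoter as 0 it was 8 above and 10 below, against 17.2% and 13% of all promoters, and with loess within arrays 7 above and 6 below, against 20.3% and 7.05%. The calls also depend on the background correction and the summary: 0 of the 53 passed above when normexp replaced the background correction (3 at an unadjusted p under 0.05). With the median over probes in place of the mean, 0 passed above (13 unadjusted) and 0 below (7 unadjusted), against 5.69% and 0.0866% of all promoters. At an unadjusted p under 0.05 by limma, 27 (50.9%) were above and 1 (1.89%) below, against 53% and 1.98%. Both PRDM2 arrays were above 0 at 41 promoters (77.4%), against 73.3% of all promoters, and both below 0 at 7 (13.2%), against 10.1%. Just inside the threshold stood Tnfrsf11b at an adjusted p of 0.0438 by limma and Tnfrsf18 at 0.0474, and just outside it Traf6 at 0.0618 and Traf3ip3 at 0.0698.

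**Figure D1:**
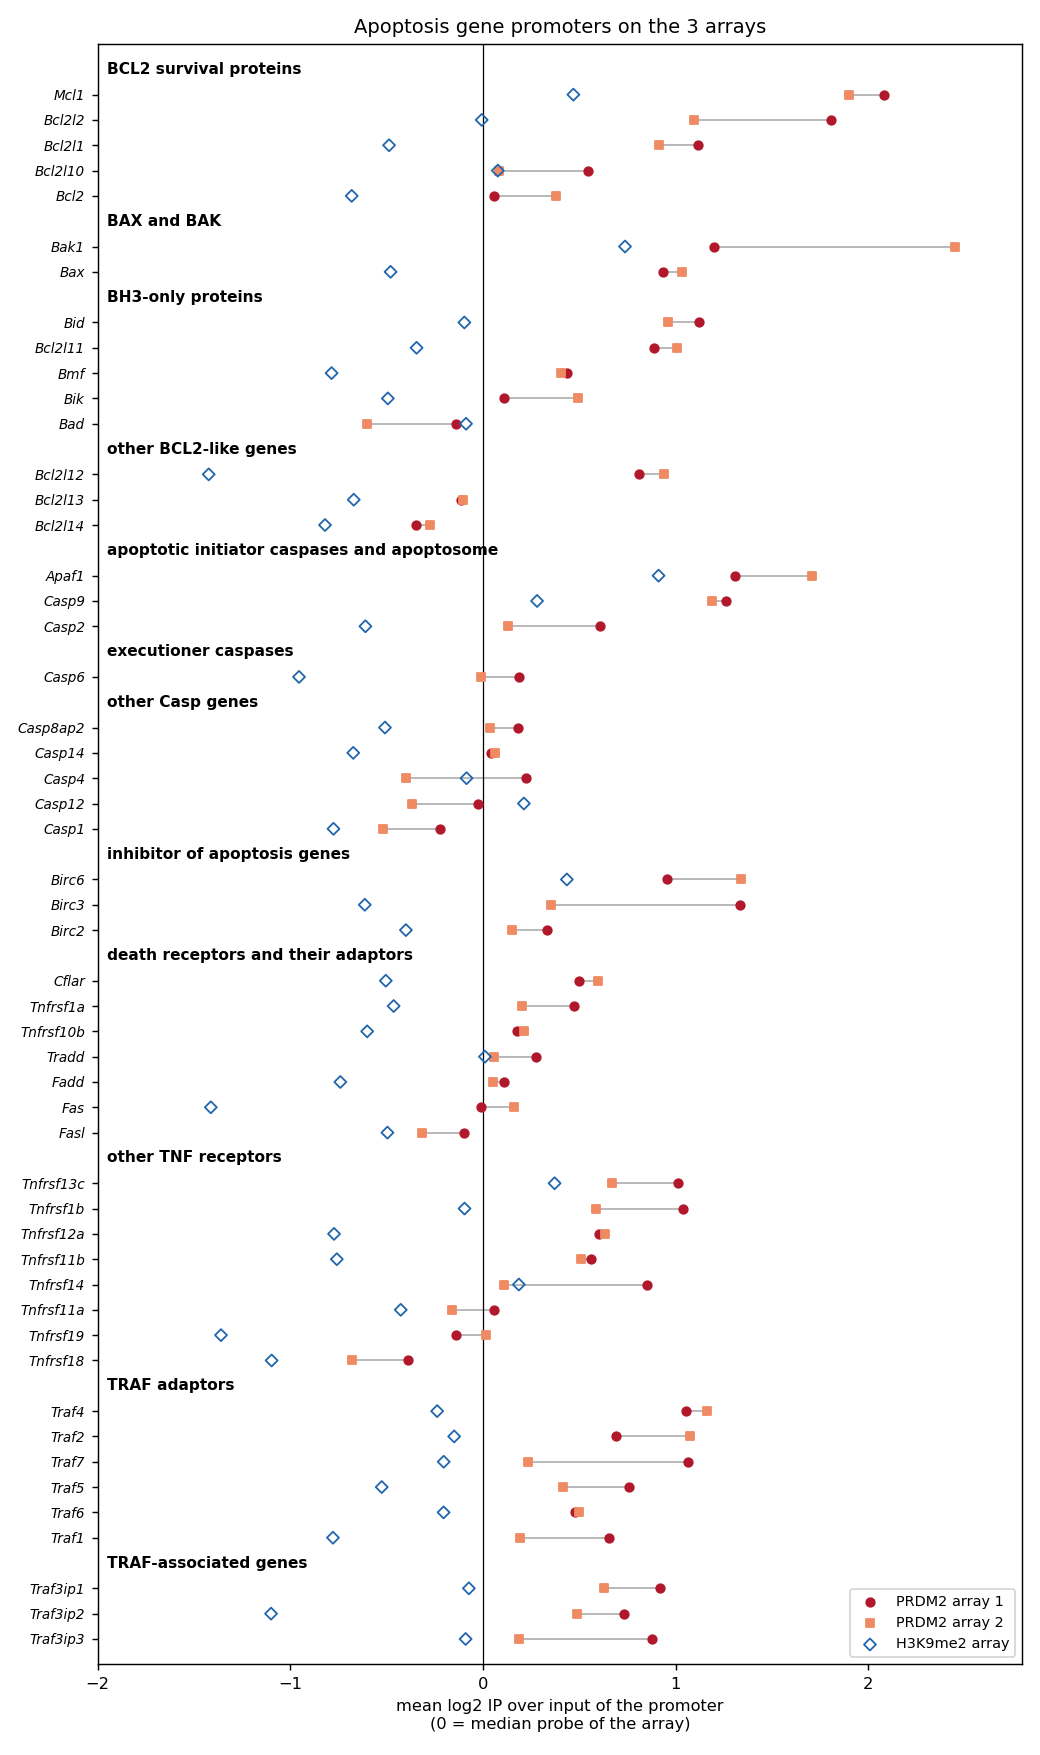
Mean log2 IP over input of 51 of the 53 apoptosis promoters (x axis, 0 is the median probe of the array), by role down the page, with filled circles for PRDM2 array 1, squares for PRDM2 array 2, a grey line joining them and open diamonds for the H3K9me2 array. Mcl1 stands at 2.08 and 1.90 on the PRDM2 arrays and Tnfrsf18 at -0.39 and -0.68.

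Among the BCL2 survival genes, 3 of 5 promoters passed the test above the median probe, against 46.9% of all promoters. Over 46% GC, where Mcl1, Bcl2l2 and Bcl2l1 lay, 83.7% of all promoters passed. Mcl1, a short-lived survival protein, read 2.08 and 1.90 on the PRDM2 arrays and 0.47 on the H3K9me2 array, with a PRDM2 mean of 1.99 ± 0.13 (SD, n = 2, adjusted p = 6.16e-05 by limma). It was the highest apoptosis promoter on array 1, and both PRDM2 values lay above the H3K9me2 value. Bcl2l2, which encodes BCL-W, read 1.81 and 1.09 on the PRDM2 arrays and -0.01 on the H3K9me2 array (adjusted p = 0.000502 by limma). Bcl2l1, which encodes BCL-XL, read 1.12 and 0.91 against -0.49 on the H3K9me2 array (adjusted p = 0.0019 by limma). Bcl2 itself, the founding member, did not pass, at 0.06 and 0.38 on the PRDM2 arrays and -0.68 on the H3K9me2 array (adjusted p = 0.405 by limma). Its highest probe, shown above, read 5.64 and 3.90 on the PRDM2 arrays.

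Both pore formers passed the test above the median probe. Among the promoters nearest in GC content, 92.5% passed for Bak1 and 89.5% for Bax. Bak1 read 1.20 and 2.45 on the PRDM2 arrays and 0.74 on the H3K9me2 array (adjusted p = 0.000412 by limma). Its PRDM2 values lay further apart than those of Mcl1, and both were above the H3K9me2 value. Bax read 0.93 and 1.03 against -0.48 on the H3K9me2 array (adjusted p = 0.00214 by limma), but its direction turned under loess within arrays, to a mean of -0.49 that passed the test below, and under normexp, to -0.13. Its input signal on PRDM2 array 1 lay 0.97 log2 above promoters of like GC content, the highest of the 53.

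Of the 5 BH3-only genes, 2 passed the test above the median probe, against 46.9% of all promoters. Among the promoters nearest to each in GC content, 54 to 96% passed. Bid, which carries the death receptor signal to mitochondria, read 1.12 and 0.96 on the PRDM2 arrays and -0.10 on the H3K9me2 array (adjusted p = 0.00161 by limma). Bcl2l11, which encodes BIM, read 0.89 and 1.01 against -0.34 (adjusted p = 0.00269 by limma), and its mean became -0.02 with the GC trend removed. Bad, whose protein frees BAX and BAK by binding BCL-XL, lay at the other end with -0.14 and -0.60 on the PRDM2 arrays and -0.09 on the H3K9me2 array. Unlike at the other BH3-only genes, the H3K9me2 value was above both PRDM2 values. Among the BCL2-like genes of less settled role, Bcl2l12 read 0.81 and 0.94 against -1.42 on the H3K9me2 array (adjusted p = 0.00425 by limma). It had 7 probes, 5 of them with IP signal well above background on the H3K9me2 array. Its highest probe read 4.89 and 6.40 on the PRDM2 arrays, and its PRDM2 median over probes was 0.11 (adjusted p = 0.774 by limma). Bcl2l13 at -0.12 and -0.10 and Bcl2l14 at -0.35 and -0.28 were below the median probe on both PRDM2 arrays without passing the test.

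In the apoptosome and the initiator caspases, Apaf1 and Casp9 passed and Casp2 did not. Among the promoters nearest in GC content, 97% passed above for Apaf1, 75% for Casp9 and 47% for Casp2. Apaf1, the scaffold of the apoptosome, read 1.31 and 1.71 on the PRDM2 arrays and 0.91 on the H3K9me2 array, the highest H3K9me2 value of the 53 (adjusted p = 0.000276 by limma). Its promoter had the fewest probes, 4, and the mean became -0.03 with the GC trend removed. Casp9, the caspase that the apoptosome starts, read 1.26 and 1.19 against 0.28 (adjusted p = 0.000642 by limma). Casp2, an initiator linked to DNA damage, read 0.61 and 0.13 against -0.61.

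Casp6, a caspase that cuts nuclear lamins, did not pass, at 0.19 and -0.01 on the PRDM2 arrays and -0.95 on the H3K9me2 array (adjusted p = 0.736 by limma). None of Casp1, Casp4, Casp12, Casp14 and Casp8ap2 passed the test in either direction by limma (0 of these 5 at an unadjusted p under 0.05). Among the promoters nearest in GC content, 7.5 to 9% passed above for Casp1, Casp4, Casp12 and Casp14, and 42.5% for Casp8ap2. These 5 genes ranged from a PRDM2 mean of -0.37 at Casp1, which matures interleukins, to 0.11 at Casp8ap2, which encodes a partner of CASP8 and no caspase. Casp12, a caspase of the endoplasmic reticulum, read -0.03 and -0.37 for PRDM2, both under its H3K9me2 value of 0.21.

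Inhibitor of apoptosis genes encode proteins that block caspases or tag their partners with ubiquitin. Birc6, a large ubiquitin carrier, read 0.95 and 1.34 on the PRDM2 arrays and 0.44 on the H3K9me2 array (adjusted p = 0.00113 by limma), and its mean became -0.07 with the GC trend removed. Birc3, which encodes cIAP2, read 1.34 and 0.35 against -0.61 (adjusted p = 0.0152 by limma). Birc2, which encodes cIAP1, read 0.33 and 0.15 against -0.40 and did not pass. Its input signal on the H3K9me2 array lay at -1.48 log2 relative to promoters of like GC content, the lowest of the 53.

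The GC content of the 7 death receptors and adaptors ran from 39.6 to 49.3%, with a median of 42.8%. Among the promoters nearest in GC content, the share passing above the median probe was 15% for Fasl, 25.5% for Fas and 30% for Cflar. It was 67% for Tnfrsf1a, 80% for Fadd, 89% for Tradd and 27.5% for the remaining gene. Of the 7 promoters themselves, 1 passed above it. That was Cflar, which encodes FLIP, the decoy that blocks CASP8, with 0.50 and 0.60 on the PRDM2 arrays and -0.50 on the H3K9me2 array (adjusted p = 0.0408 by limma). Fas read -0.01 and 0.16 against -1.41 on the H3K9me2 array, Fadd, its adaptor, 0.11 and 0.05 against -0.74, and Tnfrsf1a, the main TNF receptor, 0.47 and 0.20 against -0.46. Fasl, the ligand of FAS, was below the median probe on both PRDM2 arrays, at -0.10 and -0.32 against -0.50. Tradd, the adaptor of TNF receptor signalling, read 0.28 and 0.06 against 0.01.

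Of the 8 other TNF receptors 4 passed the test above the median probe and 1 below, against 46.9% and 1.08% of all promoters. Tnfrsf13c, the BAFF receptor of B cells, read 1.01 and 0.67 on the PRDM2 arrays and 0.37 on the H3K9me2 array (adjusted p = 0.00606 by limma), and its mean turned to -0.83 under loess and -0.37 under normexp. Tnfrsf1b, the other TNF receptor, read 1.04 and 0.59 against -0.10 (adjusted p = 0.00807 by limma), with means of -0.02 under loess and -0.05 under normexp. Tnfrsf18, which encodes GITR, a costimulatory receptor of T cells, was the lowest of the 53 at -0.39 and -0.68 against -1.10, and passed below (adjusted p = 0.0474 by limma). Tnfrsf19, which encodes the receptor TROY, read -0.14 and 0.02 against -1.36.

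Among the TRAF adaptors 4 of 6 promoters passed above the median probe, and 2 of 3 TRAF-associated genes, against 46.9% of all promoters. Traf4 read 1.05 and 1.16 on the PRDM2 arrays and -0.24 on the H3K9me2 array (adjusted p = 0.00111 by limma), at the highest GC content of the 53, 55.2%. Its mean turned to -0.51 with the GC trend removed and to -0.46 under loess. Traf2, the adaptor of the TNF receptor complex, read 0.69 and 1.08 against -0.15 (adjusted p = 0.00487 by limma), with a mean of -0.11 under loess. Traf1, which pairs with TRAF2, read 0.66 and 0.19 against -0.78 and was the lowest of its group without passing. Traf3ip1 read 0.92 and 0.63 against -0.07 (adjusted p = 0.00873 by limma), with means of -0.27 under normexp and -0.19 under loess, and Traf3ip2, an adaptor of interleukin receptors, 0.73 and 0.49 against -1.10 (adjusted p = 0.027 by limma).

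PRDM2 values of apoptosis promoters followed base composition. Over the 53 promoters the PRDM2 mean correlated with mean probe GC content at Pearson r = 0.70 (Spearman rho 0.71), and over all 16164 promoters at r = 0.64 (rho 0.66). These are descriptions across promoters, which share the same arrays and are not independent replicates. Both PRDM2 arrays correlated with each other at r = 0.81 (rho 0.83) over the 53 promoters, and at r = 0.57 (rho 0.57) with the GC trend removed. Among the 13 apoptosis promoters under 42% GC, 2 (15.4%) passed the test above the median probe, against 14.5% of all promoters in that class. Between 42 and 46% GC it was 5 of 18 (27.8%) against 45.5%, and over 46% GC 18 of 22 (81.8%) against 83.7%.

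**Figure D2:**
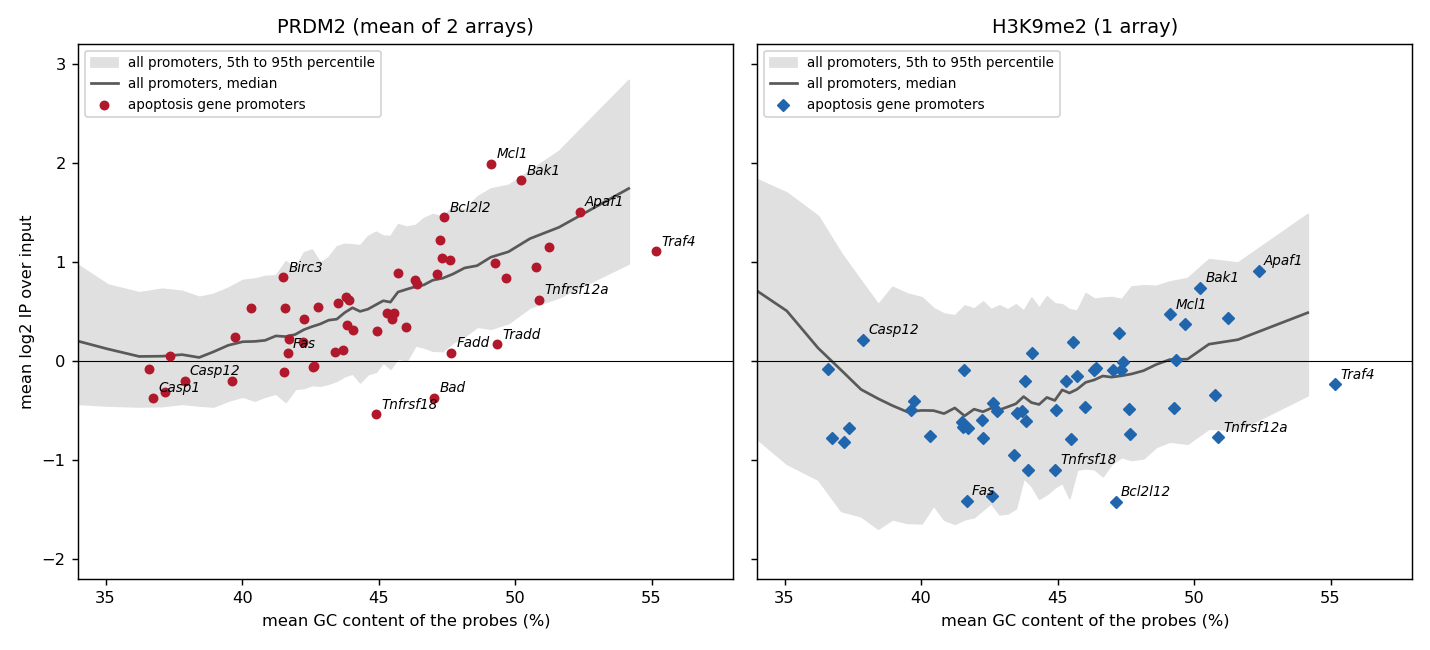
Mean log2 IP over input (y axis) against the mean GC content of the probes in percent (x axis), with points for 51 of the 53 apoptosis promoters, a line for the median and a grey band for the 5th to 95th percentile of all promoters, for PRDM2 on the left and H3K9me2 on the right. In the PRDM2 panel Mcl1, Bak1 and Bcl2l2 stand high in the band or above it, and Bad and Tnfrsf18 below it.

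With the trend of the log2 ratio on probe GC content removed from each array, 3 apoptosis promoters passed above 0 (5.66%), against 15.5% of all promoters. Below 0, 3 passed (5.66%), against 1.13%. Above were Mcl1 at a PRDM2 mean of 0.86 (adjusted p = 0.0106 by limma), Bak1 at 0.84 (adjusted p = 0.0296 by limma) and Bcl2l2 at 0.74 (adjusted p = 0.0324 by limma). On PRDM2 arrays 1 and 2 Mcl1 read 0.96 and 0.75, but Bak1 read 0.24 and 1.43 and Bcl2l2 1.11 and 0.37, so that the size of the last pair rests mostly on 1 array each. Bak1 also did not pass under loess within arrays, at 0.16 (adjusted p = 0.556 by limma), nor did Bcl2l2, at 0.074 (adjusted p = 0.748 by limma), while Mcl1 did, at 1.36 (adjusted p = 1.86e-05 by limma). Under normexp, where no promoter of the array passed, Mcl1 read 0.74, Bak1 0.32 and Bcl2l2 0.39. Below were Bad at -0.73 (adjusted p = 0.0267 by limma), Tnfrsf18 at -0.64 (adjusted p = 0.0442 by limma) and Tradd at -0.62 (adjusted p = 0.0475 by limma). Bad rests on 6 probes, 4 of them with IP signal well above background on each PRDM2 array, and Tradd on 7 probes. Without the GC step, Tnfrsf18 no longer passed below when only bright input probes were used. The median with the trend removed was 0.15 over apoptosis promoters and 0.25 over all promoters.

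Each promoter was also ranked among the 200 promoters nearest to it in GC content, as a description with no test. Mcl1 stood at percentile 97, Bak1 at 96.5, Bcl2l2 at 96 and Birc3 at 94, the 4 promoters at or over 90 by the PRDM2 mean. On PRDM2 arrays 1 and 2 taken singly, Mcl1 stood at 96.5 and 98 and Bcl2l2 at 97 and 84.5, but Birc3 at 95.5 and 72 and Bak1 at 46.5 and 99.5, so the rank of Bak1 rests on array 2. Tnfrsf18 stood at percentile 0, below all 200 (1.5 and 0 on arrays 1 and 2), where the median promoter of like GC content read 0.57, and Bad stood at 0.5 (2 and 0 on the same arrays), beside a median of 0.89. Tradd at 2.5, Fadd at 3, Tnfrsf12a at 6, Traf4 at 8 and Casp1 at 9.5 completed the 7 under 10. Over the 53 promoters 32 stood under 50, and the median percentile was 37. By group the median percentile was 69 for the 2 promoters of BAX and BAK and 63 for the survival genes, 2 of 5 under 50. It was 62.5 for TRAF-associated genes, 62 for inhibitor of apoptosis genes, 61.75 for TRAF adaptors and 53.5 for the apoptosome and initiator caspases. The 5 other Casp genes stood at 23, BH3-only genes at 22 and other BCL2-like genes at 19.5. The death receptor group stood at 17 with 6 of 7 under 50, and the other TNF receptors at 18.5 with 6 of 8 under 50. The difference between these groups was not tested.

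**Figure D3:**
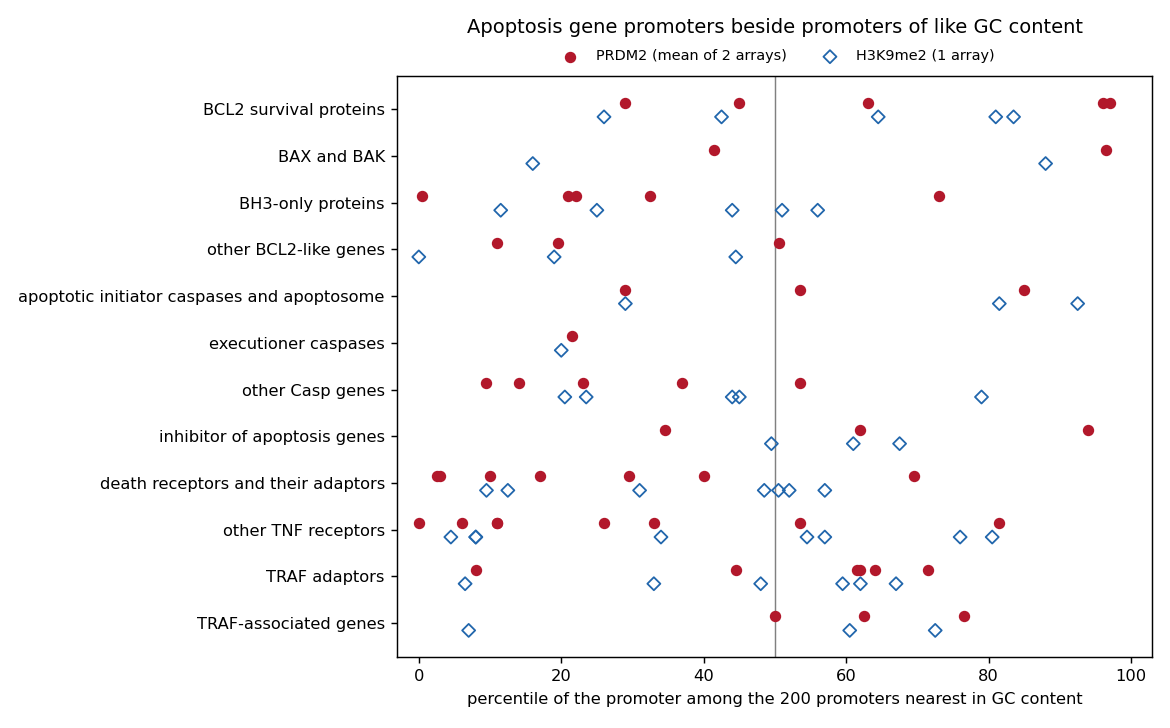
Percentile of 51 of the 53 apoptosis promoters, each among the 200 promoters nearest in GC content (x axis, line at 50), by role down the page, with filled circles for the PRDM2 mean and open diamonds for the H3K9me2 array. Circles at or over 90 belong to Mcl1, Bak1, Bcl2l2 and Birc3, of which Bak1 stands at 46.5 on array 1 alone, and 6 of the 7 circles of the death receptor group lie left of 50.

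The H3K9me2 array asked where the silent mark lay in the same arrested cells. No apoptosis promoter reached 2-fold above the median probe, against 4.08% of all promoters, and 5 (9.43%) lay at least 2-fold below it, against 12.2%. With 1 array there is no test, and the counts describe that array. The lowest were Bcl2l12 at -1.42, Fas at -1.41, Tnfrsf19 at -1.36, Traf3ip2 at -1.10 and Tnfrsf18 at -1.10. The highest were Apaf1 at 0.91, Bak1 at 0.74, Mcl1 at 0.47 and Birc6 at 0.44, all of which were also among the 7 highest for PRDM2. The median H3K9me2 value was -0.46 over apoptosis promoters and -0.23 over all promoters. Under normexp Bcl2l12, Fas, Tnfrsf18 and Traf3ip2 turned to 0.07, 0.01, 0.14 and 0.09.

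H3K9me2 values correlated with the PRDM2 means at r = 0.58 (rho 0.50) over the 53 promoters and at r = 0.52 (rho 0.52) over all promoters, again as descriptions across promoters that share arrays. With the GC trend removed, it was r = 0.33 (rho 0.31) over the 53 promoters and r = 0.54 (rho 0.54) over all promoters. The correlation of H3K9me2 values with GC content was r = 0.46 (rho 0.49) over apoptosis promoters and r = 0.07 (rho 0.13) over all promoters. Over all promoters the H3K9me2 median fell and then rose with GC content. It was 0.83 near 33.3% GC, -0.53 near 40.8% and 0.49 near 54.2%. Apoptosis promoters spanned 36.6 to 55.2% GC and all promoters 23.9 to 68.9%, so the correlations with GC content cover unlike ranges. Whether they differ over the same range was not tested. Beside promoters of like GC content, Bcl2l12 stood at percentile 50.5 for PRDM2 and at 0 on the H3K9me2 array, while Apaf1 stood at 53.5 for PRDM2 and at 92.5 on the H3K9me2 array. Bak1, at 46.5 on array 1 and 99.5 on array 2 for PRDM2, stood at 88 for H3K9me2. Tnfrsf18 was low for both antibodies, at 0 for PRDM2 and 8 on the H3K9me2 array. Bad, low for PRDM2, stood at 51 for H3K9me2.

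PRDM2 minus H3K9me2 was tested on all 3 arrays with limma, with the spread taken from the PRDM2 pair alone, since H3K9me2 has no replicate. The errors and p-values of the difference thus hold no H3K9me2 variation, and they are too small if that mark varied more than PRDM2. The difference was above 0 past the threshold at 23 of 53 apoptosis promoters (43.4%), against 41.1% of all promoters, and below 0 at none, against 1.6% (0 at an unadjusted p under 0.05). The share above 0 is thus near that of all promoters, and the median difference was 0.85 in both sets. Antibody and array cannot be told apart in this comparison, and with loess within arrays 1 promoter passed above and 2 below, against 2.7% and 8.35% of all promoters. Bcl2l12 had the largest difference, 2.30 ± 0.35 (SE, adjusted p = 0.0106 by limma), followed by Traf3ip2 at 1.71 ± 0.35 (adjusted p = 0.0131 by limma) and Mcl1 at 1.52 ± 0.35 (adjusted p = 0.0142 by limma). At the other end stood Casp12 at -0.41 ± 0.35, Bad at -0.28 ± 0.36 and Casp4 at -0.0012 ± 0.38, which did not pass. With the GC trend removed, only Bcl2l12, on 7 probes, passed above (1.89%, against 2.68% of all promoters), at 1.70 (adjusted p = 0.0186 by limma). Below, 0 of 53 passed, against 1.24%.

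Along the promoters, the ratio was highest just past the gene start. Gene starts could be placed for 36 of the 53 apoptosis promoters and for 9401 of all promoters, by exact matches of probes to RefSeq windows. Within 0 to 500 bp past the start the median of 94 probes of apoptosis promoters was 1.18 and 1.21 on the PRDM2 arrays and 0.77 on the H3K9me2 array, against 1.03, 1.16 and 0.58 over all promoters. In the 500 bp before the start, 82 probes of apoptosis promoters had medians of -0.44, -0.18 and -0.29 on these arrays, against 0.12, 0.21 and 0.11 over all promoters. Median GC content was 51.6% past the start and 44% before it in apoptosis promoters, against 51.1% and 44% over all promoters. With the GC trend removed, the PRDM2 median was -0.07 past the start and -0.40 before it in apoptosis promoters, against 0.05 and 0.03 over all promoters. The H3K9me2 median so treated was 0.07 past the start and -0.62 before it, against -0.06 and -0.08 over all promoters. The difference before the start was not tested.

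**Figure D4:**
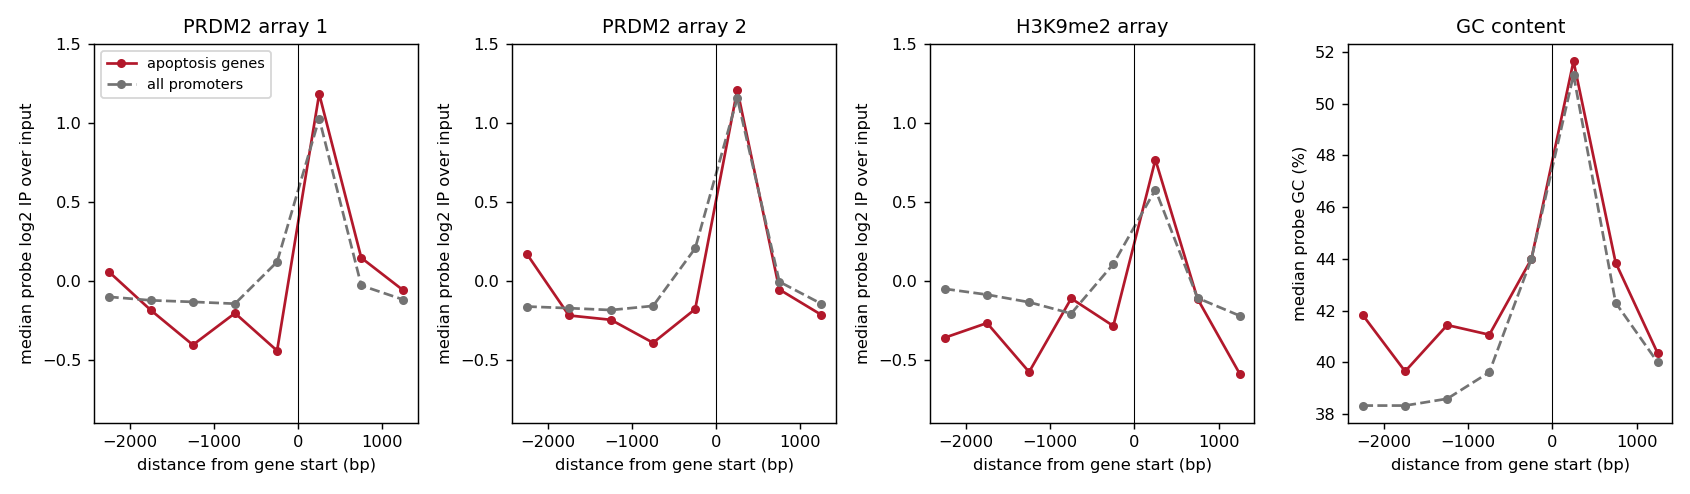
Median probe log2 IP over input on each array, and median probe GC content in percent (y axes), in 500 bp steps of distance from the gene start (x axis, bp), for the 36 apoptosis promoters with a placed start (solid) and all promoters with one (dashed). All 4 panels peak between 0 and 500 bp past the start, at 1.18, 1.21, 0.77 and 51.6% in apoptosis promoters.

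At Mcl1, 5 neighbouring probes between 158 and 928 bp past the start read at least 3.03 on both PRDM2 arrays, with a peak of 7.46 and 5.64 at 453 bp and 1.82 to 3.75 on the H3K9me2 array. The probes at 1072 and 1478.5 bp were below 0 on all 3 arrays. Bax reached 3.67 and 6.86 at 194 bp, against 0.46 on the H3K9me2 array, and 2.63 and 2.52 at 42 bp. Fas, at 0.08 on average, still held probes at 3.66 and 3.88 at 142 bp and at 3.81 and 2.36 at -336.5 bp, beside 1.45 and 2.15 on the H3K9me2 array. The highest Tnfrsf18 probe read 2.86 and 1.55 at 228 bp. No apoptosis promoter held a run of 3 probes within 1000 bp steps over the 95th percentile of all probes on both PRDM2 arrays, against 0.266% of all promoters, or on the H3K9me2 array, against 0.643%. That percentile was 4.52 and 3.85 for PRDM2 and 2.69 for H3K9me2. Over the 759 probes the PRDM2 arrays correlated at r = 0.61, and array 1 correlated with the H3K9me2 array at r = 0.59 over 758 probes.

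**Figure D5:**
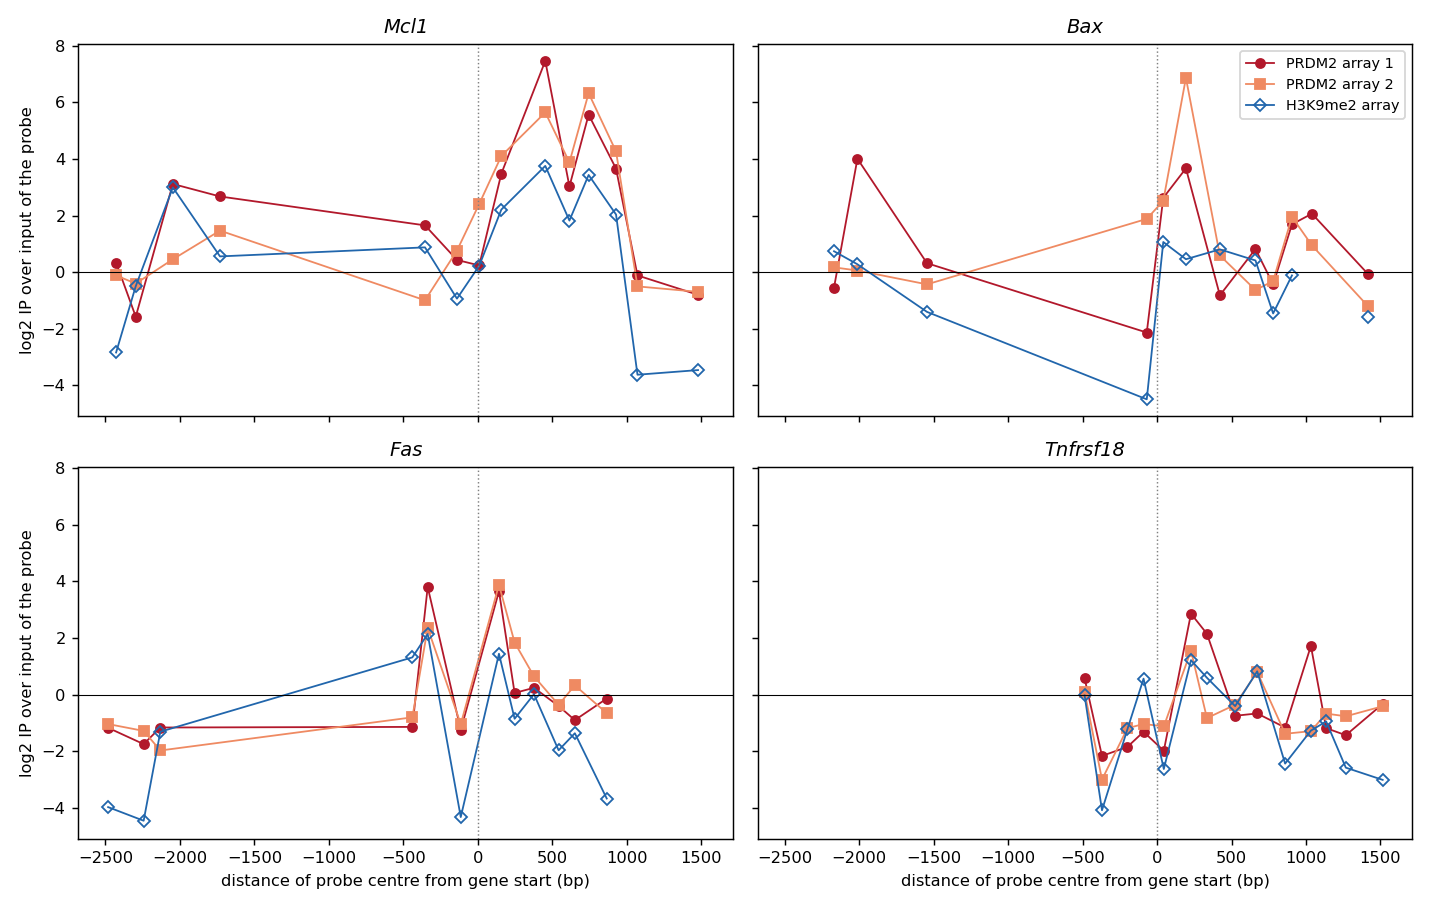
Log2 IP over input of each probe (y axis) by the distance of its centre from the gene start (x axis, bp), at Mcl1, Bax, Fas and Tnfrsf18, with circles for PRDM2 array 1, squares for PRDM2 array 2 and open diamonds for the H3K9me2 array. Mcl1 peaks at 7.46 and 5.64 on the PRDM2 arrays 453 bp past the start, and the highest Tnfrsf18 probe reads 2.86 and 1.55.

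Of 46 further genes of the pathway, 44 had promoters on the array, Pidd under its older name Lrdd. PRDM2 passed above the median probe at 24 of the 44 (54.5%, against 46.9% of all promoters) and below it at 1. It passed above H3K9me2 at 22 of them (50%, against 41.1% of all promoters). Trp73, a relative of p53, read 2.82 and 2.91 on the PRDM2 arrays and 1.28 on the H3K9me2 array (adjusted p = 1.61e-05 by limma), higher than each of the 53 promoters. Diablo, whose protein leaves mitochondria and binds inhibitors of apoptosis, read 1.70 and 1.22 against -0.02, and Bnip3, a mitochondrial BH3-like gene, 1.46 and 1.30 against 0.25. The lowest were Dffb, the nuclease that cuts DNA in dying cells, at -0.93 and -0.34 against -1.04 (adjusted p = 0.0309 by limma), and Bnip1 at -0.27 and -0.11 against -0.25. With the GC trend removed 5 of the 44 passed above (11.4%, against 15.5% of all promoters), which were Trp73, Diablo, Dapk2, Dapk1 and Tnf, and Dffb passed below (2.27%, against 1.13%).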

How the data were processed

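Processed intensities, per the file headers, came from Agilent Feature Extraction 10.5.1.1, by subtraction of background and linear dye normalization, and the deposited raw intensities were mean spot signals and local background medians. The log10 ratios in the deposited files, of red (Cy5, IP) over green (Cy3, input), served as a check, and the deposited flags marked outlier and dim spots. A value table deposited by the authors, taken to be log2 IP over input from its correlation of 0.964, 0.941 and 0.972 with the scanner values, served as an alternative; its medians were 0.124, 0.103 and 0.278, and its centring and the tool that made it are not given in the sources used here.

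Log2 ratios of processed signal were taken for 237203 probes outside the controls, without outlier spots (773 on PRDM2 array 1, 107 on PRDM2 array 2 and 218 on the H3K9me2 array), and centred on the median probe. Probes of 1 gene name, split at gaps over 10000 bp, were averaged into promoters of at least 3 probes. Tests used limma 3.58.1 in R 4.3.3 (lmFit, eBayes, Benjamini-Hochberg over 16164 promoters, adjusted p under 0.05), after a check on simulated data. The GC trend was the median log2 ratio in 50 classes of probe GC content per array. Plots were drawn with matplotlib 3.10.9 and tables made with pandas 2.3.3 and numpy 2.4.6, under Python 3.11.15.

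Members, lists and the rule for names were chosen with earlier results of these data known. The rule named in each role the 2 highest and the lowest PRDM2 means, promoters called with the GC trend removed, the extremes by like-GC percentile, by H3K9me2 and by the difference, and core genes such as Bcl2, Casp9 and Fas, 40 promoters in all. Tnfrsf11b, Traf6 and Tnfrsf12a, and Dapk2, Dapk1 and Tnf of the pathway list, were named after their values were seen. Casp8 and Birc4 were not analysed here, nor were Nfkb1 and Xaf1 of the pathway list, and some genes that the name pattern takes in are not reported here by name.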

Additional observations from a re-analysis of the deposited data

How the results depend on the processing

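The number of apoptosis promoters passing above the median probe for PRDM2 was 25 of 53, against 46.9% of all promoters. It was 24 with bright input probes only (against 47%), 21 with the deposited value table (against 40.9%) and 25 with a variance trend (against 49%). It was 3 with the GC trend removed (against 15.5%), 7 with loess (against 20.3%) and 8 with the median promoter as 0 (against 17.2%). With normexp or the median over probes it was 0 (3 and 13 at an unadjusted p under 0.05 by limma). The count passing below the median probe was 1, against 1.08% of all promoters. It was 3, 6 and 10 under the GC, loess and median promoter settings, against 1.13%, 7.05% and 13%. It was 0 with normexp, bright input, the value table or the median over probes (3, 1, 0 and 7 unadjusted). PRDM2 passed above H3K9me2 at 23 promoters (against 41.1% of all promoters), at 17 with bright input (against 33.8%) and at 12 with the value table (against 21.4%). It did so at 1 with the GC trend removed, with loess or with the median promoter as 0, against 2.68%, 2.7% and 0.736%. With normexp or the median over probes it did so at 0 (0 and 6 unadjusted). It passed below at 0 (against 1.6%), and at 2 with loess (against 8.35%). At an unadjusted p under 0.05 by limma, normexp gave 8 below and 0 above, and loess 3 below and 8 above. Among all promoters normexp called 0 and the median over probes 5.69% above. Of the named PRDM2 means, some turned sign. With the GC trend removed these were Apaf1 at -0.025, Bcl2l11 at -0.022, Birc6 at -0.069, Tradd at -0.62 and Traf4 at -0.51. With normexp they were Bax at -0.13, Tnfrsf13c at -0.37, Tnfrsf1b at -0.051, Traf3ip1 at -0.27 and Traf3ip2 at -0.0059. With loess they were Bax at -0.49, Tnfrsf13c at -0.83, Tnfrsf1b at -0.016, Tradd at -0.88, Traf2 at -0.11, Traf3ip1 at -0.19 and Traf4 at -0.46. H3K9me2 values turned with normexp at Bcl2l12 (0.069), Fas (0.012), Tnfrsf18 (0.14) and Traf3ip2 (0.088). The cause was not tested. Leaving out a PRDM2 array leaves 1 array and no residual degrees of freedom, so it gave values with no test. No paired analysis was possible because H3K9me2 has 1 array and the replicate numbers of the PRDM2 arrays pair them with nothing else. IP signal close to that of negative controls limits the PRDM2 arrays.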

Other observations

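Both remaining genes of the name pattern, paralogs of the survival gene Bcl2a1 on chromosome 9, had too few probes for a promoter value. The 2 probes of Bcl2a1c read 3.94 and 4.40 on PRDM2 array 1, 0.34 and 0.58 on PRDM2 array 2, and 2.44 and 2.74 on the H3K9me2 array. The single probe of Bcl2a1b read -0.88 and -0.61 on the PRDM2 arrays and -2.62 on the H3K9me2 array.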
